A study of Mus musculus with 32 samples.

Results

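CD8 and cytotoxic effector genes were followed through whole tumors of 2 mouse mesothelioma models grown in the pleural cavity (IPL) or under the skin (SC). The genes were chosen by name as Cd8a, Cd8b1, Gzmk, Fasl, Nkg7, Gzma, Gzmb, Gzmc, Prf1 and Ifng, and 5 of these 10 (Cd8a, Cd8b1, Gzmk, Fasl and Nkg7) had a row among the 39676 genes of the table. Gzma, Gzmb, Gzmc, Prf1 and Ifng were not analysed here. AB1 cells were given to BALB/c mice and AE17 cells to C57BL/6 mice, with 500000 AB1 or 1000000 AE17 cells per mouse at either site. All mice were untreated females of 8 to 10 weeks, and tumors were taken on day 10 from 8 mice in each of the 4 groups, named by model and site (for example AB1 IPL). Before RNA extraction the lungs and other surrounding tissue had been taken away from the tumors. Each model is 1 transplanted cell line in 1 strain of mouse, so that cell line, strain and cell dose cannot be told apart between AB1 and AE17.

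A cytotoxic T cell recognises peptide on MHC class I through its T cell receptor, with the CD8 coreceptor binding the same MHC molecule. It kills by releasing granules that hold perforin and granzymes onto the target, or by showing Fas ligand to a target that carries the receptor Fas. Natural killer (NK) cells use the same granules and the same ligand without the T cell receptor, and in tumors both cell types are counted among the cells that act against the malignant cells. RNA of a whole tumor does not separate these sources, and fewer cells of a type and less RNA per cell cannot be told apart.

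Cd8a and Cd8b1 encode the α and β chains of the CD8 coreceptor. The αβ form marks most cytotoxic T cells, while the α chain is also made by some dendritic cells. Cd8a lies at chr6:71373427-71379173 and Cd8b1 at chr6:71322788-71337494, both on the plus strand of GRCm38 and 35932 bases apart. Gzmk (chr13:113171608-113225908, minus strand) encodes granzyme K, a protease of the cytotoxic granule. Nkg7 (chr7:43437073-43438249, plus strand) encodes a protein of the granule membrane that T and NK cells share. Fasl (chr1:161780689-161788495, minus strand) encodes Fas ligand. No exon of these genes overlapped one of another gene. Of the 50-base stretches of their transcripts, 90 of 1434 in Cd8b1 and 3 of 3683 in Cd8a also occurred in another gene, and none did in Gzmk, Fasl or Nkg7.

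The promoters of the members are shown from 250 bases before to 50 bases after the RefSeq start on GRCm38.p6. RefSeq gave a promoter for 4 of the 5 members and none was printed for Cd8b1. Capitals mark matches, on either strand, to 5 motifs of factors known from T cells: TGTGGT (RUNX), GGTGTGA (T-box), GGAAAA (NFAT), TTCNNNGAA (GAS, the site of STAT dimers) and TGANTCA (AP-1).
Cd8a, chr6:71373177-71373476, plus strand: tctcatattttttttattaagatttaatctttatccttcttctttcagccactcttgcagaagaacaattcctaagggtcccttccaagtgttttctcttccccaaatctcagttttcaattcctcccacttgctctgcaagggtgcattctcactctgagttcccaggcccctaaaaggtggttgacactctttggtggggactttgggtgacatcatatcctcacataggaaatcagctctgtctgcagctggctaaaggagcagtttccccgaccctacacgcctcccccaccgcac
Gzmk, chr13:113180916-113181215, minus strand: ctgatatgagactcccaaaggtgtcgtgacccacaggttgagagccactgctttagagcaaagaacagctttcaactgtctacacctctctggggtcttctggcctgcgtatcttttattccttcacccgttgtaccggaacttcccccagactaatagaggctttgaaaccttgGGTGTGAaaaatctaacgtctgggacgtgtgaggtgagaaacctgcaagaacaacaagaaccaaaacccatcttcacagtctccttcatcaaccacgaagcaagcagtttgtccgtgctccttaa
Nkg7, chr7:43436888-43437187, plus strand: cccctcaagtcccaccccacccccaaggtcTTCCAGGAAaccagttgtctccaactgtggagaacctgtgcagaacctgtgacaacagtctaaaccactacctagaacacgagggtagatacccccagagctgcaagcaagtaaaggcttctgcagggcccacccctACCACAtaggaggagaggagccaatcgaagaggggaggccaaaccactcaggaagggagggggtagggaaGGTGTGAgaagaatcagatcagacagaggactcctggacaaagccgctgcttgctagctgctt
Fasl, chr1:161788446-161788745, minus strand: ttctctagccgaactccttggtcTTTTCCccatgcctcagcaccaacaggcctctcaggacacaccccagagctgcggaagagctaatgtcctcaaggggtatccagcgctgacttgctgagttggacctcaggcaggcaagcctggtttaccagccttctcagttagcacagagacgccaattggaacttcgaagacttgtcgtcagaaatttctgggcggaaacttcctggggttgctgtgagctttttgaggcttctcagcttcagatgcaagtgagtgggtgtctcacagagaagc
The T-box letters were in the Gzmk promoter (base -75 from the start) and in the Nkg7 promoter (base -13). Nkg7 also held the RUNX letters (base -83) and a GAS match (base -220), Fasl held the NFAT letters (base -227), and the Cd8a window held none of the 5 motifs. Among 32851 promoters of the same length, 16.8% held the RUNX letters, 3.98% the T-box letters, 23.4% the NFAT letters, 8.30% a GAS match and 7.81% an AP-1 match. A match is a description of letters, not of a bound site. The RefSeq start of Gzmk lies inside the longer gene span given above.

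Total counts per tumor ran from 15432258 to 20649645, and 3 counts, the limit of detection used here, equal 0.145 to 0.194 CPM, which are counts divided by the TMM-scaled size of the library. A few libraries stood apart in markers of other tissues. Rag1, which recombines antigen receptor genes in developing lymphocytes, was over 1 CPM in 3 tumors (AB1 IPL replicates 3 and 5 and AE17 IPL replicate 5). Skeletal muscle genes (Acta1, Ckm, Tnnt3, Myh4 and Mylpf) summed to between 95.3 and 3517 CPM in AB1 IPL tumors and to between 50.7 and 326 CPM in AB1 SC tumors. AE17 IPL replicate 5 also had the highest sums of its group for 3 adipocyte genes (800 CPM, group median 33.5) and 4 cardiac muscle genes (166 CPM, group median 18.2), and it was the highest of that group for 3 of the 5 members. Of 6 mesothelial genes on the marker list, Wt1, Upk3b and Krt19 had a row, with sums of 0.242 to 17.3 CPM in the groups other than AB1 IPL. In AB1 IPL tumors the sums ran from 0.379 to 52.2 CPM with a median of 1.04 CPM, and replicate 2 was the highest. All 8 AB1 IPL libraries ran on lane 3 and all 8 AE17 SC libraries on lane 1, with AB1 SC split between lanes 2 and 3 and AE17 IPL between lanes 1 and 2.

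Per kilobase of exon, Nkg7 had the highest level of the 5 genes in every group, and Gzmk and Fasl the lowest. In AE17 IPL tumors the mean was 28.9 ± 7.44 CPM per kb for Nkg7 (SD, n = 8), 12.7 ± 2.26 for Cd8a, 12.3 ± 2.78 for Cd8b1, 1.798 ± 0.656 for Gzmk and 1.75 ± 0.284 for Fasl. Both CD8 chains were thus at nearly the same level per length, within 1 SD of each other. In AB1 SC tumors the corresponding means were 39.8 ± 10.8 CPM per kb for Nkg7, 8.32 ± 2.17 for Cd8a, 8.90 ± 2.64 for Cd8b1, 3.56 ± 0.959 for Fasl and 1.32 ± 0.366 for Gzmk. Fasl stood above Gzmk there, whereas the means of these genes in AE17 IPL tumors differed by less than 1 SD.

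**Figure D1:**
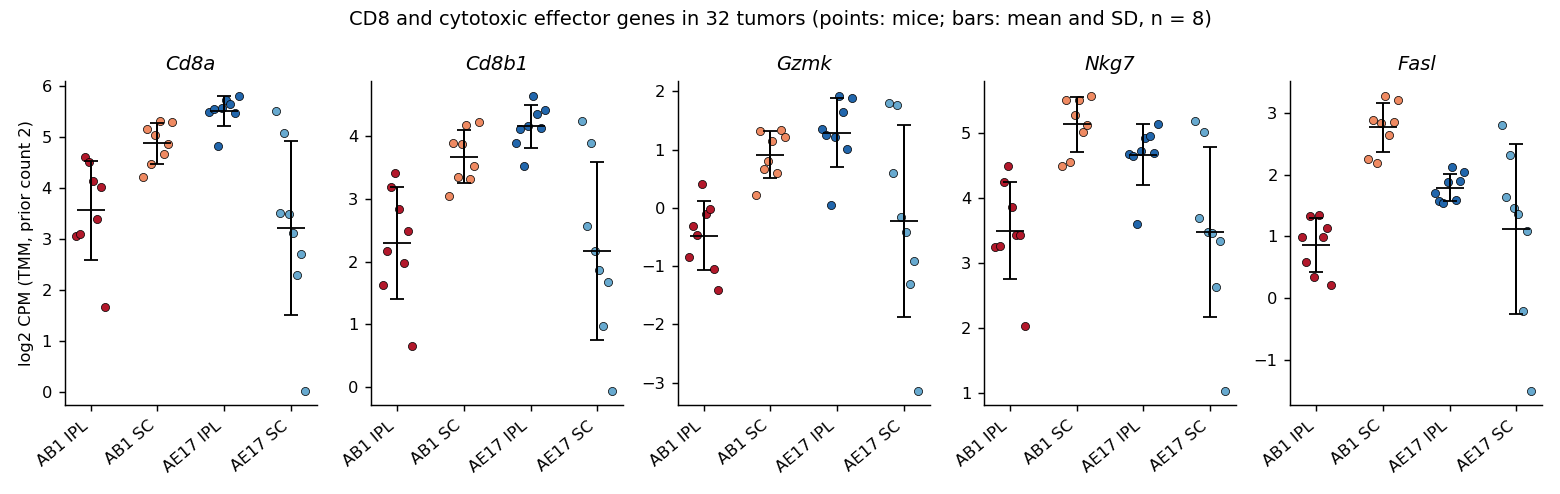
Log2 of TMM-scaled CPM (prior count of 2) of Cd8a, Cd8b1, Gzmk, Nkg7 and Fasl, with 1 point per tumor, 8 tumors in each group, and bars at the mean and SD. The mean of AB1 IPL tumors lies below that of AB1 SC tumors for every gene, without overlap of the points for Fasl and Nkg7, while AE17 SC tumors spread from below every AE17 IPL tumor up into their range and, for Fasl and Nkg7, above it.

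The coreceptor was lower in pleural than in subcutaneous AB1 tumors. Cd8a was at 3.08, 13.2 and 24.3 CPM in the lowest, median and highest of the 8 AB1 IPL tumors, and at 18.4, 30.9 and 39.6 CPM in AB1 SC tumors. Of the AB1 IPL tumors, 6 were below every SC tumor and the ranges overlapped. The log2 fold change of IPL against SC was -1.14 ± 0.31 (SE), 2.20-fold lower, with an adjusted p of 0.0136 in edgeR's quasi-likelihood test (Benjamini-Hochberg over all genes, here and below). Cd8b1 ran from 1.46 to 10.5 CPM (median 4.97) in IPL and from 8.20 to 18.7 CPM (median 12.96) in SC tumors, with 6 IPL tumors below every SC tumor. It fell by 1.25 ± 0.31 on the log2 scale, 2.37-fold lower (adjusted p = 0.00753).

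The granule genes fell too. Gzmk, the least abundant of the 5 in counts, was at 0.261, 0.651 and 1.21 CPM in the lowest, median and highest AB1 IPL tumors and at 1.05, 1.86 and 2.41 CPM in SC tumors, which are counts of 5 to 23 and of 20 to 47. Only 1 IPL tumor reached the SC range. Gzmk was 2.80-fold lower in IPL tumors (log2 fold change -1.48 ± 0.27, adjusted p = 0.000790). Nkg7 ran from 3.97 to 22.497 CPM (median 10.7) in IPL and from 22.549 to 47.7 CPM (median 37.0) in SC tumors, so that the ranges met without overlapping. It was 2.93-fold lower (log2 fold change -1.55 ± 0.27, adjusted p = 0.000601).

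The death ligand gave the greatest site difference of the 5 genes in AB1. Fasl was at 1.04, 1.87 and 2.44 CPM in the lowest, median and highest IPL tumors and at 4.42, 7.04 and 9.54 CPM in SC tumors. Every IPL tumor was below every SC tumor. The fold change was 3.90 downward (log2 fold change -1.96 ± 0.21, adjusted p = 1.32e-05).

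All 5 members were therefore called lower in AB1 IPL tumors, where 10.7% of the 14645 genes tested were called lower and 12.3% higher. Their median log2 fold change was -1.48, and the median over all genes was -0.00225. In the fit of all 32 tumors Cd8a missed the threshold (-1.13, adjusted p = 0.0540) and the other 4 were called lower. These calls were made across lanes. With lane as a covariate the members' log2 fold changes ran from -0.98 for Cd8a to -1.74 for Fasl, and Fasl alone kept its call (adjusted p = 0.00484, against 0.0619 for Nkg7, 0.0758 for Gzmk, 0.271 for Cd8b1 and 0.310 for Cd8a). Within lane 3, which holds 8 IPL and 2 SC tumors, Fasl differed by -1.79 (adjusted p = 0.0252) and Cd8a by -1.04 (adjusted p = 0.493). Without AB1 IPL replicates 3 and 5, the tumors with Rag1, all 5 members stayed called lower, from -1.41 for Cd8a to -2.14 for Fasl. Without AB1 IPL replicate 2, the tumor with the highest sum of mesothelial genes, all 5 were also called lower, from -1.04 for Cd8a (adjusted p = 0.0275) to -1.89 for Fasl.

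Markers of other cells moved with the members in AB1. Of 9 NK cell genes, 7 were tested and 7 were called lower, with a median log2 fold change of -2.17. The sum of the 9 ran from 22.7 to 62.6 CPM in IPL and from 94.0 to 223 CPM in SC tumors. Among them were Klrd1 (-2.22), a chain of an inhibitory and activating receptor pair, and Ncr1 (-2.17), an activating receptor of NK cells. The CD4 and regulatory T cell genes Cd4 (-1.24), Foxp3 (-1.21), Il2ra (-2.01) and Icos (-2.39) were called lower as well, 4 of the 4 tested, with a sum over the 5 listed genes of 16.5 to 27.3 CPM in IPL and 52.7 to 100.0 CPM in SC tumors. Of 5 genes that all leukocytes share, 4 were called lower, from -1.18 for Ptprc (CD45) to -0.37 for Coro1a, which was not called (adjusted p = 0.117), with a median of -0.85. Macrophage genes were called lower in 3 of 5 (median -0.33) and γδ T cell genes in 2 of 3 (median -0.99). Of 7 genes tested of cross-presenting dendritic cells, some of which make Cd8a, Batf3 (-1.33) and Itgae (-0.79) were called lower. The other 5 were not called, and the 7 ran from -1.33 to 0.14 with a median of -0.58. All 5 skeletal muscle genes were called higher, from 2.60 for Mylpf to 4.26 for Ckm, as were 2 of 3 adipocyte genes (median 2.54) and the 1 cardiac muscle gene tested (3.11). Of 5 B cell genes tested, 3 were called higher and 1 lower, with a median of 0.84. Of 2 thymocyte genes tested, 1 was called higher (2.10) and 1 lower (-1.50). Of thymic epithelium and of lymph node stroma, 1 of 2 genes tested was called higher in each. In the fit with lane, 1 thymocyte gene was called lower and no thymic epithelium or lymph node stroma gene was called. With lane as a covariate the 7 NK cell genes and the 4 CD4 and regulatory T cell genes were again called lower, with 1 of the 5 leukocyte genes and 1 of the 3 γδ T cell genes, and none of the muscle, adipocyte, macrophage, dendritic cell or B cell genes was called. The part of these cells and tissues in the members' differences was not tested.

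In AE17 neither chain of the coreceptor passed the test, and its levels were spread widely under the skin. Cd8a was at 28.2, 46.9 and 55.3 CPM in the lowest, median and highest AE17 IPL tumors and at 0.909, 9.81 and 45.4 CPM in AE17 SC tumors. Of the SC tumors, 6 were below every IPL tumor and the other 2, replicates 1 and 3, were at 45.4 and 33.6 CPM, inside the IPL range. The log2 fold change was 1.60 ± 0.51, 3.03-fold, with an adjusted p of 0.0732, which did not pass the threshold of 0.05. Cd8b1 ran from 11.5 to 24.98 CPM (median 17.7) in IPL and from 0.848 to 18.9 CPM (median 3.97) in SC tumors, again with 6 SC tumors below every IPL tumor. Its log2 fold change was 1.45 ± 0.47 (adjusted p = 0.0727).

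The effector genes had smaller log2 fold changes than Cd8a between the sites of AE17, and none was called. Gzmk was at 0.927, 2.34 and 3.68 CPM in the lowest, median and highest IPL tumors and at 0, 0.708 and 3.37 CPM in SC tumors, where replicate 8 had 0 counts. The log2 fold change was 0.97 ± 0.55 (adjusted p = 0.281). Nkg7 ran from 12.05 to 35.2 CPM (median 26.03) in IPL and from 1.94 to 36.3 CPM (median 11.01) in SC tumors. The difference on the log2 scale was 0.80 ± 0.42 (adjusted p = 0.242). Fasl, with 2.78, 3.36 and 4.22 CPM in IPL and 0.242, 2.56 and 6.87 CPM in SC tumors, had a log2 fold change of 0.25 ± 0.41 (adjusted p = 0.747). For each of these 3 genes, 5 SC tumors were below every IPL tumor and at least 1 SC tumor was above every IPL tumor, apart from Gzmk, whose highest tumor was an IPL one.

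None of the 5 members was called in AE17, where 5.73% of 14668 genes were called. Their median log2 fold change was 0.97, and the median over all genes was 0.00428. Unadjusted p was under 0.05 for Cd8a (0.00643) and Cd8b1 (0.00635) in edgeR's quasi-likelihood test, which is not an exact test. DESeq2 called both higher (adjusted p = 0.0350 and 0.0382), as did edgeR with all 32 tumors in 1 fit (0.0238 and 0.0271). Leaving out AE17 SC replicate 1 raised Cd8a to 2.07 and Cd8b1 to 1.89, and both were then called (adjusted p = 0.0136 and 0.0132). Leaving out AE17 SC replicate 3 also gave both calls, and no other single tumor did. Without AE17 IPL replicate 5, Cd8a was at 1.56 (adjusted p = 0.0819) and Cd8b1 at 1.37 (adjusted p = 0.0868). With lane as a covariate Cd8a was at 1.71 (adjusted p = 0.243) and within lane 1, with 3 IPL and 8 SC tumors, at 1.71 (adjusted p = 0.328).

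Several genes of other lymphocytes were called lower in AE17 IPL tumors. Of 9 NK cell genes, 4 were: Ncr1 (-1.43), Klra9 (-1.35), Klra8 (-1.33) and Klrb1c (-1.31), with the sum of the 9 between 74.3 and 112 CPM in IPL and between 39.8 and 157 CPM in SC tumors. Foxp3 (-1.63), the factor of regulatory T cells, Icos (-1.49) and Il2ra (-1.16) were called lower, and Cd4 was at -0.71 (adjusted p = 0.275). The sum over the 5 listed CD4 and regulatory T cell genes was 10.9 to 42.6 CPM in IPL and 20.8 to 72.6 CPM in SC tumors. Klra8 and Klra9 belong to a family of nearly identical genes that differs between strains, so that their values are uncertain. In the other direction, 2 of the 4 B cell genes tested were called higher, among them Cd79a (4.07, adjusted p = 0.0338), with a median of 1.45. Also called higher were 1 of 7 genes of cross-presenting dendritic cells, 1 of 2 of thymic epithelium and the 1 cardiac muscle gene (1.49). After adjustment for lane, none of the tested genes of these lists was called. Their part in the members' values was not tested.

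**Figure D2:**
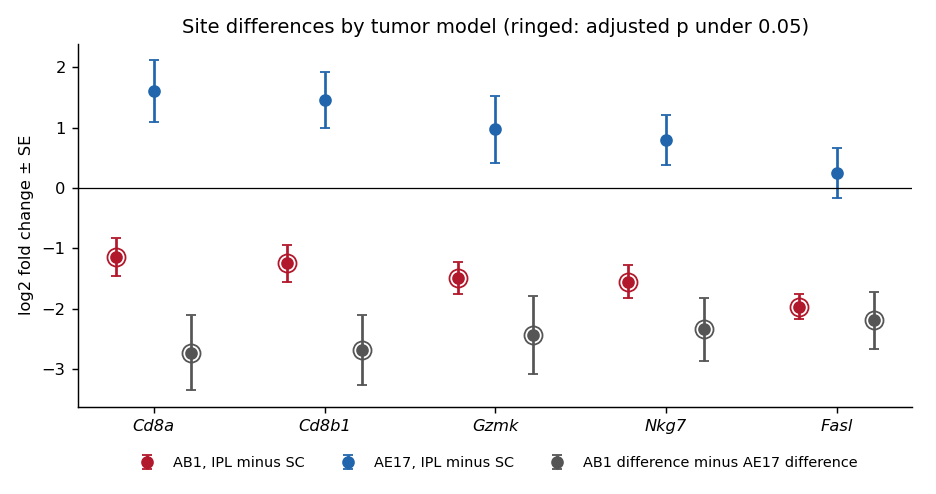
Log2 fold change of IPL against SC for the 5 members in AB1 (red) and in AE17 (blue), with 8 tumors per group. The AB1 effect minus the AE17 effect is in grey. Bars are standard errors, the size of the log2 fold change over the square root of edgeR's F statistic. Rings mark an adjusted p under 0.05 with no term for lane. Every AB1 value lies below 0, from -1.96 for Fasl to -1.14 for Cd8a, and every AE17 value lies above 0, from 0.25 for Fasl to 1.60 for Cd8a.

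The site effect of every member differed between the models when the difference itself was tested. The AB1 effect minus the AE17 effect was -2.72 ± 0.62 for Cd8a (log2, SE, adjusted p = 0.00279), -2.68 ± 0.58 for Cd8b1 (adjusted p = 0.00188) and -2.43 ± 0.64 for Gzmk (adjusted p = 0.00788). It was -2.34 ± 0.52 for Nkg7 (adjusted p = 0.00233) and -2.19 ± 0.47 for Fasl (adjusted p = 0.00178). All 5 members were thus called in the lower direction, against 8.62% of the 15681 genes tested in that direction and 20.5% in either. The site effects behind these differences were -1.96 in AB1 and 0.25 in AE17 for Fasl, and -1.14 and 1.60 for Cd8a. The members' median was -2.43, beside 0.0175 over all genes. No call was lost on leaving out any one tumor. Lane was added as a covariate to the fit of 32 tumors after the data were seen, and all 5 calls were then lost. The sizes moved little, to -2.68 for Cd8a (adjusted p = 0.108), -2.60 for Cd8b1 (adjusted p = 0.0974), -2.52 for Gzmk (adjusted p = 0.148), -2.46 for Nkg7 (adjusted p = 0.0831) and -2.02 for Fasl (adjusted p = 0.118), and the standard errors rose to between 0.67 and 0.90. Over all genes, 117 were called in that fit.

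Between models the order of the groups depended on the site. Under the skin, 3 of the 5 members were called higher in AB1 than in AE17, where 28.6% of genes were called higher and 58.3% in either direction. Fasl (log2 fold change 1.27 ± 0.33, adjusted p = 0.00147) and Nkg7 (1.26 ± 0.37, adjusted p = 0.00408) were 2.41-fold and 2.39-fold higher. Cd8b1 (0.98 ± 0.41, adjusted p = 0.0399) passed the threshold narrowly and Cd8a (0.99 ± 0.44, adjusted p = 0.0533) missed it, although their sizes were nearly equal. Without a filter Cd8b1 lost its call (0.999, adjusted p = 0.0684). With total counts in place of TMM factors Cd8a was called (1.05, adjusted p = 0.0402). Gzmk was at 0.52 ± 0.45 (adjusted p = 0.331). The call of Cd8b1 was lost on leaving out any one of AB1 SC replicates 2, 4, 5 and 8 or AE17 SC replicates 2, 4, 5, 6, 7 and 8, with an adjusted p of up to 0.0785. Cd8a was called without AB1 IPL replicate 8, AB1 SC replicate 1, AE17 SC replicate 1 or AE17 SC replicate 3, with its lowest adjusted p at 0.00337. Once lane was a covariate, none of the 5 was called, with Nkg7 at 1.65 (adjusted p = 0.0551), Fasl at 1.41 (adjusted p = 0.0735) and Cd8b1 at 1.24 (adjusted p = 0.209).

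In the pleura all 5 members were lower in AB1 than in AE17, where 31.8% of genes were called lower and 63.4% in either direction. Gzmk differed by -1.92 ± 0.47 (3.78-fold, adjusted p = 0.000626), Cd8a by -1.74 ± 0.44 (3.33-fold, adjusted p = 0.00109) and Cd8b1 by -1.70 ± 0.42 (3.25-fold, adjusted p = 0.000687). Nkg7 differed by -1.08 ± 0.37 (adjusted p = 0.0117) and Fasl by -0.92 ± 0.34 (adjusted p = 0.0184). Every AB1 IPL tumor was below every AE17 IPL tumor for Cd8a, Cd8b1 and Fasl, 7 of 8 were for Gzmk and 5 of 8 for Nkg7. The share of all genes whose groups separate in this way is not given here. Under the lane adjustment, none of the 5 was called, from -1.68 for Gzmk (adjusted p = 0.153) to -0.61 for Fasl (adjusted p = 0.523). With shares of called genes this high, the members' counts are to be read beside cell line, strain, cell dose and lane, which differ between the models together. By median, Cd8a was highest in AE17 IPL, then AB1 SC, AB1 IPL and AE17 SC tumors, and the last 2 groups overlapped widely. Fasl was highest in AB1 SC tumors, whose 8 values were all above the AE17 IPL values.

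Dividing one gene by another within a tumor removes the scaling of the library and shows which genes changed unequally. For 6 pairs of genes in each model, the mean log2 ratio was compared between IPL and SC tumors in an exact two-sided permutation test of 8 tumors against 8, with adjustment over the 12 tests and a smallest possible p of 0.000155. The pairs of Gzmk, Fasl and Nkg7 with Cd8a were chosen after the table was seen. In AE17 the median tumor had 5.58 Cd8a per Cd4 (ratio of CPM with a prior count of 2, as for all ratios here) in the pleura and 0.621 under the skin, and the groups did not overlap. The mean log2 ratio was 2.51 ± 0.739 (SD, n = 8) in IPL and -0.55 ± 1.18 in SC tumors, an 8.32-fold difference (adjusted p = 0.000373, exact permutation test). In AB1 this ratio differed by -0.05 between the sites (adjusted p = 0.850, exact permutation test), with medians of 1.65 and 1.60.

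Cd8a per Cd3e, a chain that all T cells carry beside their receptor, had medians of 4.01 in AE17 IPL and 1.72 in AE17 SC tumors, again without overlap (log2 difference 1.22, adjusted p = 0.000373, exact permutation test). In AB1 the difference was -0.12 (adjusted p = 0.579, exact permutation test). The β chain followed the α chain closely. Cd8b1 to Cd8a differed by -0.30 in AE17 (adjusted p = 0.0416, exact permutation test), with medians of 0.391 in IPL and 0.433 in SC tumors, and without AE17 SC replicate 8, where the genes had 14 and 15 counts, by -0.16 (adjusted p = 0.0809). That call was also lost without any one of AE17 IPL replicates 1, 2, 3, 4, 6, 7 and 8 or AE17 SC replicates 2 and 7. In AB1 the difference was -0.07 (adjusted p = 0.579, exact permutation test).

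The effector genes were lower relative to Cd8a in AE17 IPL than in AE17 SC tumors. All 6 ratios contain Cd8a, so that they are not independent of one another. Fasl to Cd8a had medians of 0.0759 and 0.259 (log2 difference -1.62), and Nkg7 to Cd8a of 0.577 and 1.202 (log2 difference -1.10). Gzmk to Cd8a had medians of 0.0538 and 0.0845 (log2 difference -0.78). Leaving out the tumor with Rag1 ended no call of the 6 AE17 ratios. Each of the 3 effector ratios had an adjusted p of 0.000373 (exact permutation test), and none overlapped between the sites. For Gzmk this depended on the prior count in AE17 SC replicate 8, which had 0 counts of Gzmk and whose ratio is therefore set by the prior. With a prior count of 0.5 in place of 2 the log2 difference for Gzmk was -0.48 (adjusted p = 0.104, exact permutation test), and without that tumor it was -0.74 (adjusted p = 0.000746, exact permutation test). In AB1, Nkg7 to Cd8a was lower in IPL tumors (log2 difference -0.32, adjusted p = 0.0196, exact permutation test). Fasl to Cd8a had a log2 difference of -0.58 (adjusted p = 0.0809, exact permutation test), which passed without AB1 IPL replicate 1 (adjusted p = 0.0441) or AB1 IPL replicate 8 (adjusted p = 0.00240), and Gzmk to Cd8a differed by -0.07 (adjusted p = 0.850). NK cells make Nkg7 and Fasl but not the CD8 coreceptor of T cells, and their markers are given beside the comparisons above. Whether a ratio's site difference itself differed between the models was not tested.

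**Figure D3:**
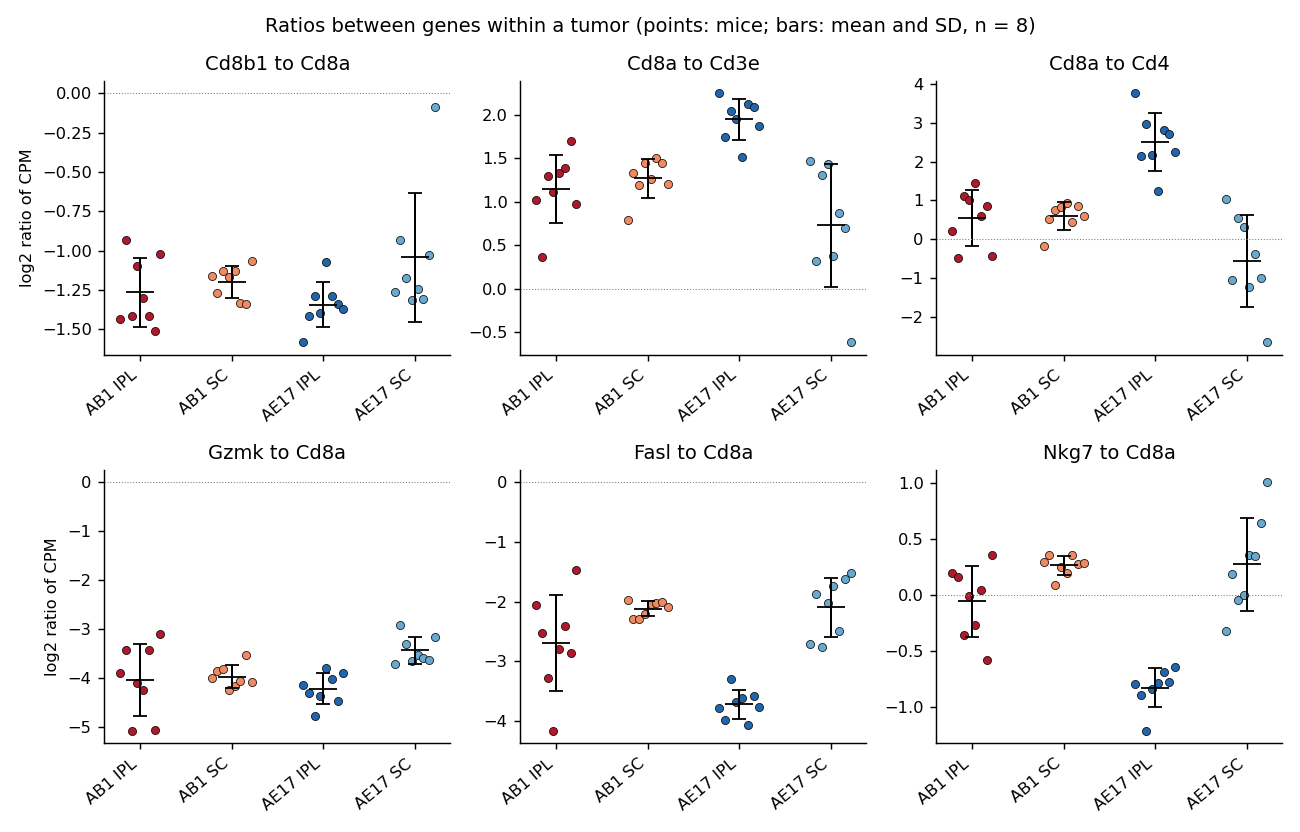
Log2 ratio of pairs of genes within each tumor, with 1 point per tumor, 8 tumors per group and bars at the mean and SD. In AE17 the Cd8a to Cd4 and Cd8a to Cd3e ratios of IPL tumors lie above all SC tumors and the ratios of Gzmk, Fasl and Nkg7 to Cd8a lie below (the Gzmk point of AE17 SC replicate 8, with 0 counts, is set by the prior count of 2), while the AB1 groups overlap in every pair.

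The 5 members ranked the AE17 SC tumors in the same order. For each gene replicate 1 was highest, followed by replicates 3, 2, 4, 5, 7, 6 and 8. Cd8a in these tumors was at 45.4, 33.6, 11.3, 11.1, 8.54, 6.42, 4.77 and 0.909 CPM, a 49.9-fold range, and Nkg7 covered an 18.7-fold range. In AE17 IPL tumors the same Cd8a range was 1.96-fold. Correlations of log2 CPM between pairs of members over these 8 SC tumors were 0.955 to 0.994 (Pearson, 10 pairs), as a description of libraries that share all 8 RNA samples. In AB1 IPL tumors, the pairs ran from 0.0795 for Gzmk and Fasl to 0.975 for Cd8a and Cd8b1. Replicate 8 was lowest for all 5 members in AB1 IPL tumors, replicate 3 in AE17 IPL tumors, and replicate 1 for 4 of the 5 in AB1 SC tumors. AB1 IPL replicate 8 and AE17 SC replicate 8 were also lowest of their groups for the sums of NK cell, B cell, macrophage and pan-leukocyte genes. AE17 IPL replicate 3 was lowest for the pan-leukocyte sum but not for the other sums named. AB1 SC replicate 1 was lowest for none of them.

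**Figure D4:**
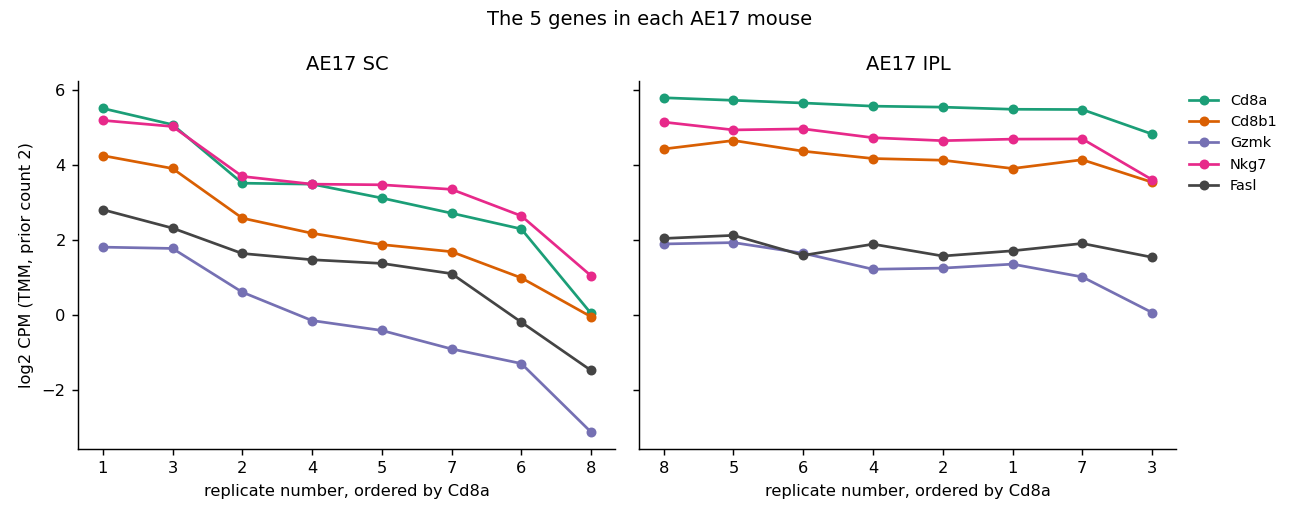
Log2 of TMM-scaled CPM (prior count of 2) of the 5 members in each of the 8 AE17 SC tumors (left) and the 8 AE17 IPL tumors (right), ordered by Cd8a, with lines that only join the points of a gene. In SC tumors all 5 genes descend together, Cd8a from 45.4 CPM in replicate 1 to 0.909 CPM in replicate 8, where Gzmk has 0 counts, while the IPL tumors are nearly level apart from replicate 3.

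Genes that varied most like the members over the 32 tumors, once group means were subtracted, were found among 15680 genes by the Pearson correlation of log2 CPM, given as a description. Cd8a was closest to Nkg7 (0.974), Cd8b1 (0.974) and Sh2d2a (0.953), which encodes an adaptor of T cell signaling. Cd8b1 was closest to Cd8a, then Nkg7 (0.964) and Pdcd1 (0.963), which encodes the inhibitory receptor PD-1. Nkg7 was closest to Cd8a, then Cd8b1 and Sh2d2a (0.960). The genes closest to Gzmk were Gimap7 (0.930), a GTPase of lymphocytes, Nkg7 (0.928) and Lck (0.922), the kinase that binds the coreceptor. Those closest to Fasl were Ms4a4b (0.950), Klrc1 (0.930), which encodes an NK cell receptor, and 9330175E14Rik (0.917). The members varied most in AE17 SC tumors, where the SD of log2 CPM was 1.31 to 1.70 over the 5 genes, against at most 0.969 in the other groups, so that those tumors weigh most in these values.

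Genes of the T cell receptor, its signaling and other surface proteins of T cells fell with the coreceptor in AB1. All 16 measured genes of T cell receptor and coreceptor signaling were called lower in AB1 IPL tumors, with log2 fold changes from -1.91 to -0.48 and a median of -1.31. Trbc1, a constant segment of the receptor β chain whose sequence is nearly that of Trbc2, so that reads may be split between them, ran from 6.47 to 20.8 CPM (median 13.1) in IPL and from 28.9 to 65.1 CPM (median 40.8) in SC tumors, and was at -1.70. Lck was at -1.08, from 14.2 to 25.7 CPM in IPL and from 29.8 to 57.9 CPM in SC tumors, so that neither gene's groups overlapped. The surface protein Thy1 (-1.22) and the adaptor Lcp2 (-0.48) made up the 4 most abundant. In the fit with a lane term, 8 of the 16 were called, with a median of -1.19.

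In AE17 none of the 16 was called by edgeR or by DESeq2, and their median was 0.30, below the members' median of 0.97. Trbc1 (0.30), Lck (0.29), Lcp2 (0.18) and Thy1 (-0.26) were on both sides of 0. For the difference of site effects between the models, 15 of the 16 were called lower, with a median of -1.67. When lane was in the fit, none of the 16 was called in that difference, with a median of -1.71.

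Beyond granzyme K, 9 granule genes had a row. In AB1, 8 were tested and 5 were called lower: Cst7 (-1.25), an inhibitor of the proteases that mature granzymes, Srgn (-1.19), the proteoglycan that packs granule contents, Unc13d (-0.75) and Stxbp2 (-0.71), which act in granule release, and Ctsc (-0.35), which activates granzymes. Lamp1, a lysosomal membrane protein of nearly all cells, was at -0.01. In AE17 edgeR called none of 8, with a median of 0.18, and DESeq2 called 1 of 9 higher, and 7 of 9 were called lower in the difference of site effects. After adjustment for lane, no granule gene was called in any of these comparisons. Several of these genes, such as Srgn and Ctsc, are also made by myeloid cells.

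Of 10 transcription factors of cytotoxic T cells, 7 were called lower in AB1 IPL tumors, among them Runx3 (-0.84) and Bhlhe40 (-0.54), with Zeb2 (-0.28, adjusted p = 0.329) and Tcf7 (-0.14, adjusted p = 0.447) not called. In AE17, 1 of the 10 was called, Tox, a factor of T cells under long stimulation by antigen. It was at 5.44, 8.83 and 13.8 CPM in the lowest, median and highest IPL tumors and at 0.606, 2.37 and 7.10 CPM in SC tumors, with a log2 fold change of 1.61 (adjusted p = 0.0207). The difference of site effects was called lower for 5 of the 10, which were Tox (-2.16), Eomes (-1.52), Tbx21 (-1.47), Runx3 (-1.03) and Batf (-0.95). Eomes and Tbx21 are the T-box factors of T and NK cells. Once lane was a covariate, 2 of the 10 were called lower in AB1 and 2 in the difference of site effects, and Tox was not called in AE17.

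Interferon-γ, which cytotoxic cells release, acts on its receptor to raise antigen presentation and chemokine genes. All 15 measured genes of this list were called lower in AB1 IPL tumors, from -1.73 to -0.23 with a median of -0.72. Gbp2, an interferon-induced GTPase, was at 137 to 480 CPM in IPL and 388 to 909 CPM in SC tumors and fell by 1.21 on the log2 scale. Tap1 (-0.72), the peptide transporter, Irf1 (-0.71) and B2m (-0.57), the light chain of MHC class I, followed. Under the lane adjustment, 2 of the 15 were called, and within lane 3 none was. In AE17 none of the 15 was called, with a median of 0.34, while DESeq2 called 4 higher. The difference of site effects was called lower for 14 of the 15, and for 2 with lane as a covariate.

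Another list holds genes that receive or resist the killing signal. Of 9 genes of the death receptor pathway and granzyme inhibitors, 3 were called lower in AB1 IPL tumors, with a median over the 9 of -0.22: Serpinb9 (-0.60), which inhibits granzyme B, Cflar (-0.35), which blocks caspase-8, and Bid (-0.31), which granzyme B and caspase-8 cleave. Casp8 was at -0.22 (adjusted p = 0.0629). In AE17 edgeR called none of the 9, with a median of 0.35, and DESeq2 called 2 higher, and 5 were called lower in the difference of site effects. In the fit with a lane term, none of the 9 was called in any of these comparisons.

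Chemokines, receptors and cytokines that draw or sustain cytotoxic lymphocytes had 18 rows, of which 16 were tested. In AB1 IPL tumors 13 of the 16 were called lower, with a median of -1.03. Ccl5, a chemokine that cytotoxic T and NK cells also make, ran from 7.47 to 24.9 CPM in IPL and from 33.3 to 125 CPM in SC tumors without overlap, at -2.02. Il15ra (-1.01), which presents interleukin-15, and Cxcl16 (-0.76) were also lower. Of the same 16 genes in AE17, Il12b was called lower (-1.07, adjusted p = 0.0467), and Ccl5 was at 0.30 (adjusted p = 0.563). The difference of site effects was called lower for 10 of the 16. When lane was in the fit, 6 of the 16 were called in AB1, none in AE17 and 1 in the difference of site effects.

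Inhibitory receptors, which T cells gain on activation, followed the members in AB1. Of 5 measured genes of this list, 4 were called lower in IPL tumors: Ctla4 (-1.999), Lag3 (-1.24), Havcr2 (-0.84) and Entpd1 (-0.69). Entpd1 encodes an enzyme of the cell surface and not a receptor. Pdcd1 was at 2.19 to 20.0 CPM (median 7.69) in IPL and 10.2 to 20.0 CPM (median 16.2) in SC tumors, and at -0.85 it was not called (adjusted p = 0.0558). In AE17 none of the 5 was called by edgeR, with values from -1.15 to 1.43 and a median of 0.32, and DESeq2 called 2 higher and 1 lower. Pdcd1 was at 11.4 to 29.1 CPM (median 18.9) in IPL and 1.15 to 18.2 CPM (median 4.13) in SC tumors, with a log2 fold change of 1.43 (adjusted p = 0.0599). Its site effect differed between the models by -2.27 (adjusted p = 0.00437), and 4 of the 5 genes were called lower in that comparison. After adjustment for lane, 3 of the 5 were called in AB1 and 1 in that comparison.

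**Figure D5:**
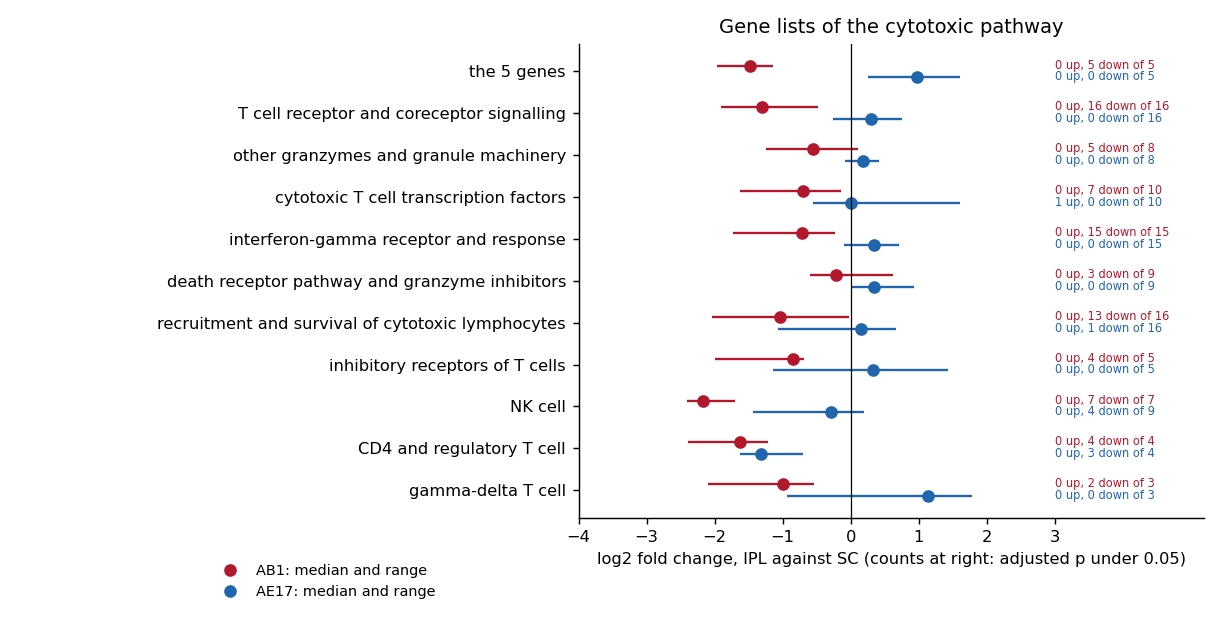
Log2 fold change of IPL against SC for the members and 10 gene lists, with a point at the median of the genes tested and a line over their range, AB1 in red and AE17 in blue, and the number called in each direction (with no term for lane) at the right. Every AB1 median lies below 0, with 16 of 16 T cell receptor genes and 15 of 15 interferon-γ genes called lower, and AE17 medians lie near 0 or above except for the NK cell and the CD4 and regulatory T cell genes.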

How the data were processed

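RNA of whole tumors from 32 mice, 8 per group, was sequenced as single-end reads. The authors mapped the reads with HISAT2 (version 2.0.4 in the submitters' processing notes, which also name bcl2fastq 1.8.4) and deposited raw counts of reads per gene without normalization. The strand setting of the counting is not given in the sources used here. Coordinates and exon lengths are those of GENCODE M21 on GRCm38, whose gene identifiers match those of the counts best. The study's methods name the build as mm11. All per-sample columns were used (0 left out).

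Counts were tested in R 4.3.3 with edgeR 4.0.16 (filterByExpr, TMM factors, robust quasi-likelihood fits, two-sided F tests) within each model, and in 1 fit of 32 tumors for the interaction and the comparisons of models. Standard errors of log2 fold changes were taken as their size divided by the square root of the F statistic. P values were adjusted over all genes tested (Benjamini-Hochberg) and called under 0.05. CPM used TMM factors, and log2 CPM a prior count of 2. For ratios an exact permutation test, two-sided, was used. The procedures were tested on simulated data. Alternatives were DESeq2 1.42.0, other size factors and filters, lane, a block for the replicate number, and fits without 1 mouse at a time. Those without libraries over 1 CPM of Rag1, and lane as a covariate in the fit of 32 tumors, were chosen after seeing the data, as were 3 of the 6 gene pairs.

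The members and gene lists were chosen with earlier results of these data known. Of each list at most 4 genes are named, those with the highest mean CPM, plus called genes where 5 or fewer were called, and for each member the 3 genes most like it. Cd3e is named for its ratio, and Rag1 was picked once its values were known. A few genes of the lists, and an alternative that needs one of them, are not reported here. The 112 pairs of libraries within groups differed more than counting error allows (chi-square of 5.51 to 135 per degree of freedom), so none was a copy. Nothing in the labels ties a replicate number to a litter or day. The limit of 3 counts reflects counting error alone, because molecules were not tagged before PCR.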

Additional observations from a re-analysis of the deposited data

Results flagged for a closer look

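The site effects of all 5 members differed between AB1 and AE17 in the test of the difference itself, by -2.72 (Cd8a), -2.68 (Cd8b1), -2.43 (Gzmk), -2.34 (Nkg7) and -2.19 (Fasl) on the log2 scale, AB1 minus AE17. Once lane was a covariate, none of the 5 differences was called.

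A single tumor lay far from the other 7 of its group in 6 of 44 groups of values examined by Dixon's test (95% critical value for 8 samples). Chance gives about 1 such tumor in 20 groups. AE17 IPL replicate 3 was the lowest of its group for Cd8a (28.2 CPM) and Nkg7 (12.05 CPM) and for the log2 ratio of Nkg7 to Cd8a (-1.22). AB1 SC replicate 1 was the lowest of its group for the log2 ratios of Cd8a to Cd3e (0.79) and of Cd8a to Cd4 (-0.17). AE17 SC replicate 8, with the fewest counts of the members, was the highest for the log2 ratio of Cd8b1 to Cd8a (-0.088). Without AE17 IPL replicate 3, the Nkg7 to Cd8a ratio in AE17 kept its call.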

How the results depend on the processing

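No member's log2 fold change reversed in any of the alternatives run, and of 886 recomputed values 835 kept their side of the threshold, 38 lost a call and 13 gained one. Under the lane adjustment, and within 1 lane, 1 member stayed called lower in AB1 (Fasl) under each, and genes called fell to 386 and 169. With lane as a covariate in the fit of 32 tumors, an alternative chosen after seeing the data, 0 members were called in the interaction, under the skin and in the pleura, and genes called were 117, 5268 and 5008. At an adjusted p under 0.01 they were 1903 in AB1, 75 in AE17 and 1513 for the interaction, and 3 members were called lower in the pleura. With all 32 tumors in 1 fit, 4 members were called lower in AB1. In AE17, 2 members were called higher with DESeq2 and 2 with all 32 tumors in 1 fit (0 to 2 on leaving out each mouse). Genes called there were 550 without a filter, 1774 with DESeq2, 1324 with all 32 tumors, 1 with lane, 14 within lane 1, 1263 without the tumor with Rag1, and 316 to 2066 on leaving out each mouse (2066 without AE17 SC replicate 1, 316 without AE17 IPL replicate 4). Requiring 10 counts in every tumor left 3 members, and all 3 were called lower in the interaction and in the pleura. Nkg7 to Cd8a in AB1 lost its call within lane 3 (-0.38, against -0.32 over all AB1 tumors). That lane holds 8 IPL and 2 SC tumors of AB1, and so few arrangements can hardly pass the permutation test after adjustment. Cd8b1 to Cd8a in AE17 lost it with a prior count of 0.5 (-0.29), with the replicate block (-0.30) and within lane 1 (-0.29), and ran from -0.34 to -0.16 on leaving out each mouse. Gzmk to Cd8a in AE17 lost it with a prior count of 0.5 (-0.48), and Fasl to Cd8a in AB1 ran from -0.76 to -0.37 on leaving out each mouse. The cause of these changes was not tested.

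The correlation between deviations from the group means of tumors with the same replicate number was -0.29 to -0.0027 in AB1, where no pair was over 0.1 and 0 of 8 correlated best with their own number. In AE17 it was -0.23 to 0.27, with 5 of 8 pairs over 0.1 and 3 of 8 best with their own number, so that not every pair deviated together in either model. With the replicate block, 2263 genes were called in AB1 and 661 in AE17, with 5 and 0 members.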
